A study of Homo sapiens with 9 samples.

Results

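The 28 genes described here make cholesterol or control its supply: the enzymes that build sterols from acetyl-CoA, the regulators of the transcription factor SREBP2, and several proteins of sterol uptake and transport. They were listed by function and matched by gene symbol to the Ensembl identifiers of the count files, and all 28 were found among the 60880 gene identifiers. RNA was sequenced from SNU5, a line of cells long established from a human gastric carcinoma, cultured for 24 h with the antibody ramucirumab at 8 μg/mL in every group. In the NR group ramucirumab was carried on gold nanorods through polyethylene glycol (AuNR-PEG-Ab), in the SP group it was carried on gold nanospheres (AuSP-PEG-Ab), and in the Ab group it was given alone, with 3 libraries per group. All groups thus received the antibody, ramucirumab being directed against the VEGF receptor VEGFR2. Libraries of untreated cells or of cells given gold without antibody were not analysed here, so the particle, its linker and the carried form of the antibody cannot be told apart in any comparison with Ab. The NR libraries held between 13863155 and 25735410 counts each, the SP libraries between 20601906 and 22914759, and the Ab libraries between 19566064 and 26318227.

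Cells make cholesterol from acetyl-CoA through mevalonate, isoprenoid diphosphates, squalene and lanosterol, and a chain of enzymes in the endoplasmic reticulum then trims lanosterol to cholesterol. SREBP2, encoded by SREBF2, is held in that membrane by its escort SCAP and the anchor proteins INSIG1 and INSIG2 while sterol is plentiful. When membrane sterol falls, SCAP carries SREBP2 to the Golgi, where proteases release its active part, and the factor then switches on most enzymes of the pathway, INSIG1 and SREBF2 itself. Only RNA was measured here, so neither SREBP2 cleavage nor sterol content is known.

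The SREBF2 gene has in its promoter a sterol regulatory element, the motif that SREBP2 binds, so its upstream sequence is shown to let a reader see the element. The promoters of MSMO1 and MVK are shown beside it because these genes had the highest fold changes in NR among listed genes with CCAAT in a promoter on hand. Their windows hold CCAAT boxes through that choice and, for MVK, GGGCGG boxes, both of the kind often found near such elements. These windows were chosen after values and matches were seen, and none of the called genes defined below that had a promoter on hand held either element motif. The sequences are from RefSeq promoters on GRCh38.p14, plus strand, 5′ to 3′. Capitals mark, in SREBF2, the element and after it a CCAAT box read on the other strand, and in MSMO1 and MVK the CCAAT and GGGCGG boxes of either strand.
SREBF2, chr22:41832931-41833050, 174 to 55 bases before the start: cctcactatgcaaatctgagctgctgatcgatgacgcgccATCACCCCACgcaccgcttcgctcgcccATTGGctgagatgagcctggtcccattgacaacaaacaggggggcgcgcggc
MSMO1, chr4:165327444-165327563, 225 to 106 bases before the start: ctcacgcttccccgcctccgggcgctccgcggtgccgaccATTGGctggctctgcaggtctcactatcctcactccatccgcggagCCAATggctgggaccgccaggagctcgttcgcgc
MVK, chr12:109573544-109573663, 250 to 131 bases before the start: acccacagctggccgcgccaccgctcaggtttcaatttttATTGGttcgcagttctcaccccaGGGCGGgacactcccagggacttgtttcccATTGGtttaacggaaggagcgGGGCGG

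Promoters of 250 bases before to 50 after the start were on hand for 25 of the 28 genes, 33 promoters in all, without ACAT2, FDFT1 and SQLE. The element as spelled by the first capitals of the SREBF2 window, searched on both strands, was found in 16 of 35116 promoters (0.0456%), and SREBF2 was the only listed gene that held it. In SREBF2 the element began 134 bases before the start, with 18 bases between it and a CCAAT box. The looser motif TCACNCCAC, which overlaps the element, was found in 1.13% of all promoters and again in SREBF2 alone of the list. CCAAT was found in 23 of the 33 promoters (69.7%), against 34.6% of all promoters and 34.7% of the promoters of genes tested in NR against Ab. GGGCGG was found in 29 of the 33 (87.9%), against 65.9% of the promoters of tested genes. A match is only a run of letters within 300 bases, and no binding was measured.

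Values are given as CPM, counts brought to a common library size across the 9 libraries, and 3 counts, the most that an observed count of 0 allows, correspond to 0.114 to 0.216 CPM. A gene was called where the edgeR test gave a Benjamini-Hochberg adjusted p of at most 0.05 over all genes and a change of at least 2-fold, and it is said to have passed where only the adjusted p was met. Of the 28 genes, 27 had counts enough to be tested. NPC1L1, the sterol importer of the gut lining, had 0 to 7 counts per library and was not tested. The study speaks of biological replication, but the sample labels do not tie each library to a culture of its own, so p-values measure the spread between these libraries, part of which may be technical. In RNA from whole cultures, more RNA of a gene per cell and more cells that express it cannot be told apart.

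Library SP1 stood apart from the other particle libraries. For 23 of the 27 tested genes it had the lowest CPM of the 6 libraries with gold particles. The median over the genes of log2(CPM/mean CPM of Ab) was 1.18, 1.20 and 1.19 in NR1 to NR3, 0.78 in SP1, and 1.05 and 1.03 in SP2 and SP3. For the listed genes as a whole, counts of called and passing genes and the median are therefore given with and without SP1.

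Most genes of sterol synthesis were higher with both gold carriers than with ramucirumab alone. In NR against Ab, 16 of 27 genes (59.3%) were called higher and 0 lower, where 12.4% of all 15009 genes tested were called higher, 10.3% lower and 22.7% in either direction. In SP against Ab, 13 of 27 (48.1%) were called higher and 0 lower, against 12.6% higher, 10.6% lower and 23.2% in either direction of 15068 genes. Without SP1 the latter count was 15 and the median change in SP was 1.02 on the log2 scale. The median change of the 27 genes was 1.18 on the log2 scale (2.26-fold) in NR and 0.94 (1.92-fold) in SP, while the median of all genes tested was -0.01 in both. Both comparisons use the same Ab libraries. The summed level of the 27 tested genes was 2760 ± 32.5 CPM in NR, 2460 ± 184 CPM in SP and 1300 ± 24.4 CPM in Ab (mean ± SD, n = 3), that is 2.12 and 1.89 times the Ab level. SP1 had the lowest sum of the SP libraries, 2250 CPM against 2550 and 2580 CPM.

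**Figure D1:**
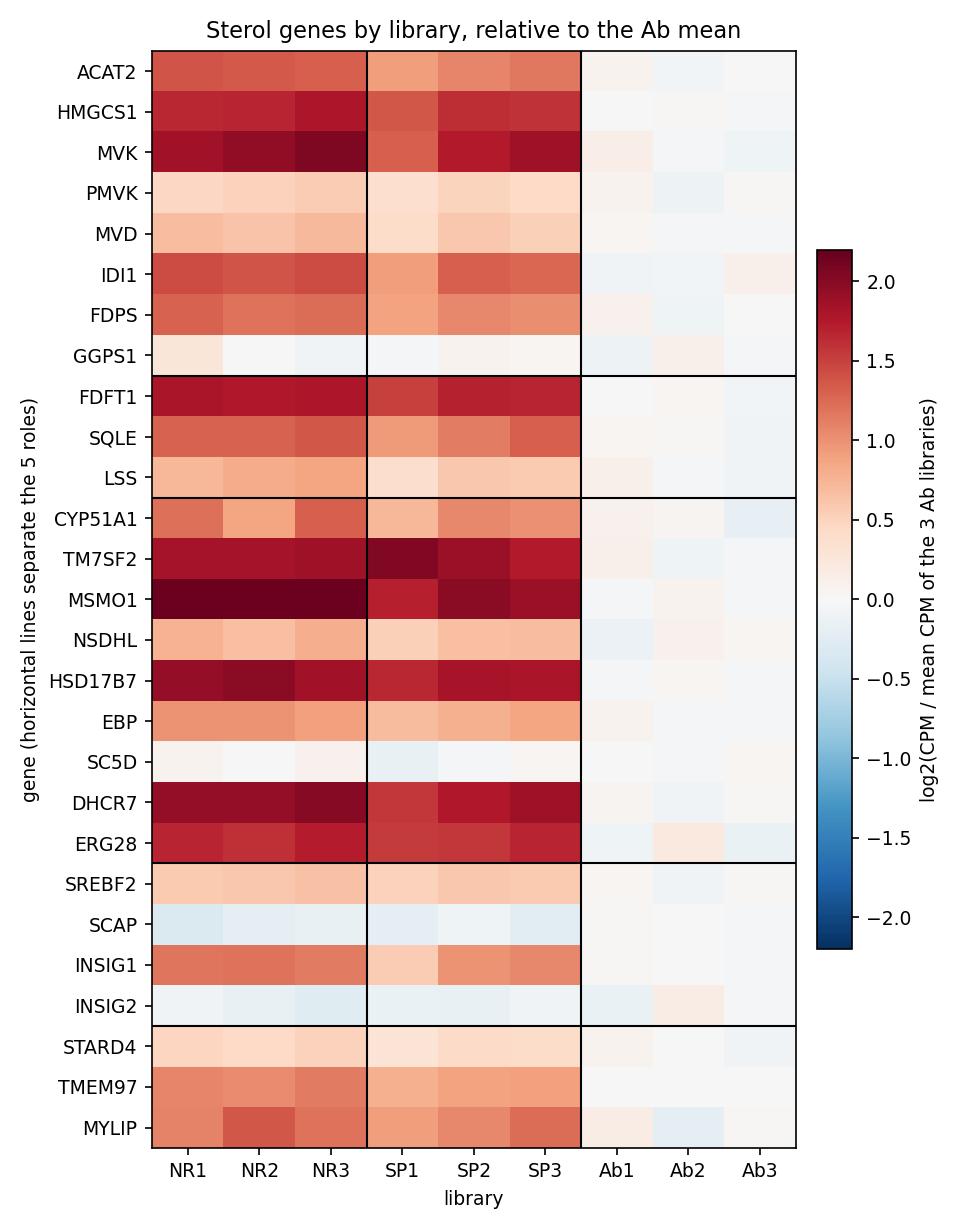
Heat map of the 27 tested genes (rows, ordered by role) in the 9 libraries (columns), coloured by log2 of a library's CPM over the mean CPM of the 3 Ab libraries. Most rows are red in all 6 particle libraries, SP1 is paler than the other 5 in most rows, and GGPS1, SC5D, SCAP and INSIG2 stay near white.

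By the adjusted p alone, 23 of 27 genes (85.2%) rose and 1 fell in each comparison with Ab, and in SP the counts were also 23 and 1 without SP1. Over all genes 36.4% rose, 36.4% fell and 72.7% passed in NR, and 36.4% rose, 36.6% fell and 73.0% passed in SP, so passing is common in these libraries. The CPM of the groups did not overlap for 24 of 27 genes in either comparison, against 74.7% and 75.1% of all genes.

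The first steps of the pathway run from acetyl-CoA to farnesyl diphosphate. Of the 8 genes of these mevalonate and isoprenoid steps, 5 were called higher with either carrier, namely ACAT2, HMGCS1, MVK, IDI1 and FDPS. PMVK and MVD rose by less than 2-fold, and GGPS1 did not pass the test. HMGCS1, the synthase that makes HMG-CoA, was at 259, 263 and 282 CPM in NR1 to NR3, 210, 252 and 246 CPM in SP1 to SP3 and 81.5, 83.3 and 80.7 CPM in Ab1 to Ab3. It was 3.28-fold higher in NR (log2 1.71, SE 0.05, edgeR adjusted p = 3.04e-22) and 2.90-fold higher in SP (log2 1.54, SE 0.06, adjusted p = 3.50e-17). All particle libraries were far above all Ab libraries, and the 3 NR libraries lay above the 3 SP libraries.

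MVK, mevalonate kinase, rose most of these genes. Its level was 36.7, 39.3 and 42.3 CPM in the NR libraries, 25.4, 34.0 and 37.2 CPM in the SP libraries and 11.2, 9.89 and 9.49 CPM in the Ab libraries. The change was 3.88-fold in NR (log2 1.95, SE 0.09, adjusted p = 9.90e-18) and 3.19-fold in SP (log2 1.67, SE 0.13, adjusted p = 2.88e-08). SP1 was low for MVK, and the ranges of NR and SP overlapped.

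ACAT2, the cytosolic thiolase that joins acetyl-CoA units at the start of the pathway, was at 98.6, 96.5 and 94.4 CPM in NR, 71.7, 79.6 and 84.8 CPM in SP and 39.7, 36.2 and 37.7 CPM in Ab. Its log2 change was 1.36 (SE 0.06) in NR and 1.07 (SE 0.07) in SP. IDI1, which interconverts the isoprenoid building blocks, was at 127, 122 and 126 CPM in NR, 88.7, 117 and 113 CPM in SP and 44.5, 44.9 and 51.0 CPM in Ab, with log2 changes of 1.42 (SE 0.06) and 1.19 (SE 0.10). In both genes the 3 groups were fully separated, NR highest and Ab lowest.

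FDPS, farnesyl diphosphate synthase, was at 125, 117 and 119 CPM in NR, 93.9, 106 and 104 CPM in SP and 54.1, 47.6 and 51.0 CPM in Ab. Its change in NR was 2.38-fold (log2 1.25, SE 0.06), and in SP it lay at the edge of the 2-fold rule (SE 0.06 on the log2 scale, adjusted p = 4.76e-14) and was no longer called without Ab2 (log2 0.95), without SP2 (log2 0.96), without SP3 or with a minimum of 10 counts in every library (log2 0.99 in each), or in a fit of all 9 libraries. PMVK and MVD, the kinase and the decarboxylase that follow MVK, rose by 0.51 and 0.68 in NR and by 0.44 and 0.52 in SP on the log2 scale. GGPS1 makes geranylgeranyl diphosphate, which leaves the sterol route for protein prenylation. It ranged from 25.3 to 32.7 CPM over the 9 libraries, with overlapping groups and log2 changes of 0.08 (SE 0.09, adjusted p = 0.414) in NR and 0.03 (SE 0.08, adjusted p = 0.760) in SP.

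All 3 genes of the squalene and lanosterol steps rose. FDFT1, squalene synthase and the first enzyme committed to sterols, was at 240, 237 and 238 CPM in NR, 196, 224 and 222 CPM in SP and 69.8, 71.5 and 66.5 CPM in Ab. It was 3.44-fold higher in NR (log2 1.78, SE 0.05, adjusted p = 1.04e-22) and 3.10-fold higher in SP (log2 1.63, SE 0.06, adjusted p = 7.33e-20). SQLE, the monooxygenase that makes the squalene epoxide, was at 184, 184 and 192 CPM in NR, 142, 162 and 186 CPM in SP and 76.5, 76.0 and 71.2 CPM in Ab. Its log2 changes were 1.33 (SE 0.05) and 1.14 (SE 0.08), and the SP libraries spread more than the NR libraries.

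LSS, the cyclase that closes the ring system to lanosterol, rose by less than 2-fold. It was at 80.1, 85.4 and 88.3 CPM in NR, 62.9, 72.6 and 72.2 CPM in SP and 52.3, 46.5 and 46.0 CPM in Ab, with log2 changes of 0.81 (SE 0.06) in NR and 0.53 (SE 0.07) in SP. The 3 groups did not overlap.

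The 9 genes after lanosterol held the highest median change, 1.67 in NR and 1.59 in SP on the log2 scale, with 6 called higher in NR and 5 in SP, or 6 in SP without SP1. The SP median without SP1 was 1.61. MSMO1, the oxidase that attacks the C4 methyl groups, had the highest fold change of the whole list in NR. It was at 102 CPM in each NR library, 75.6, 90.8 and 86.1 CPM in SP and 22.3, 24.1 and 22.7 CPM in Ab. The change was 4.44-fold in NR (log2 2.15, SE 0.06, adjusted p = 2.36e-22) and 3.67-fold in SP (log2 1.87, SE 0.07, adjusted p = 7.09e-19).

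The other enzymes of C4 demethylation rose with MSMO1 but unequally. HSD17B7, the reductase of that cycle, was at 42.8, 44.2 and 40.2 CPM in NR, 35.3, 39.3 and 38.9 CPM in SP and 11.0, 11.5 and 11.0 CPM in Ab, with log2 changes of 1.92 (SE 0.08) and 1.76 (SE 0.08). ERG28, a membrane protein thought to hold the demethylation enzymes together, was at 51.4, 49.2 and 53.3 CPM in NR, 46.7, 47.3 and 51.4 CPM in SP and 15.1, 18.7 and 14.5 CPM in Ab, with log2 changes of 1.67 (SE 0.08) and 1.59 (SE 0.08). NSDHL, the dehydrogenase of the cycle, ranged from 21.3 to 24.8 CPM in Ab and from 33.6 to 40.7 CPM in the particle libraries, a log2 change of 0.74 in NR and 0.63 in SP. In all of these genes every particle library was above every Ab library.

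DHCR7, which reduces a ring double bond in the branch through 7-dehydrocholesterol, was at 171, 171 and 180 CPM in NR, 133, 154 and 165 CPM in SP and 46.8, 42.6 and 45.6 CPM in Ab. It rose 3.87-fold in NR (log2 1.95, SE 0.05, adjusted p = 1.15e-22) and 3.37-fold in SP (log2 1.75, SE 0.07, adjusted p = 1.46e-15). TM7SF2, a sterol C14 reductase, was at 19.7, 19.6 and 20.1 CPM in NR, 22.5, 20.6 and 18.6 CPM in SP and 5.98, 5.17 and 5.42 CPM in Ab, with log2 changes of 1.85 (SE 0.11) and 1.91 (SE 0.11). TM7SF2 was the only called synthesis gene with a higher estimate in SP, and its NR and SP libraries overlapped. Without SP1 its difference between carriers changed sign (log2 0.01 in NR against SP).

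CYP51A1, the lanosterol C14 demethylase, was at 11.3, 8.96 and 12.2 CPM in NR, 8.10, 10.1 and 9.76 CPM in SP and 5.25, 5.10 and 4.31 CPM in Ab. It was called in NR (log2 1.16, SE 0.14, adjusted p = 2.39e-08) and fell short of 2-fold in SP (log2 0.94, SE 0.14), although without SP1 it was called there too (log2 1.02). EBP, the isomerase that moves the ring double bond, rose by 0.96 in NR and 0.80 in SP on the log2 scale. SC5D, the C5 desaturase, ranged from 46.0 to 54.5 CPM over all libraries, with log2 changes of 0.06 (SE 0.06, adjusted p = 0.359) in NR and -0.05 (SE 0.06, adjusted p = 0.527) in SP. SC5D and GGPS1 were the only enzymes of the list that did not pass in either comparison with Ab, although with upper-quartile scaling SC5D passed in NR (log2 0.13, adjusted p = 0.0461).

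**Figure D2:**
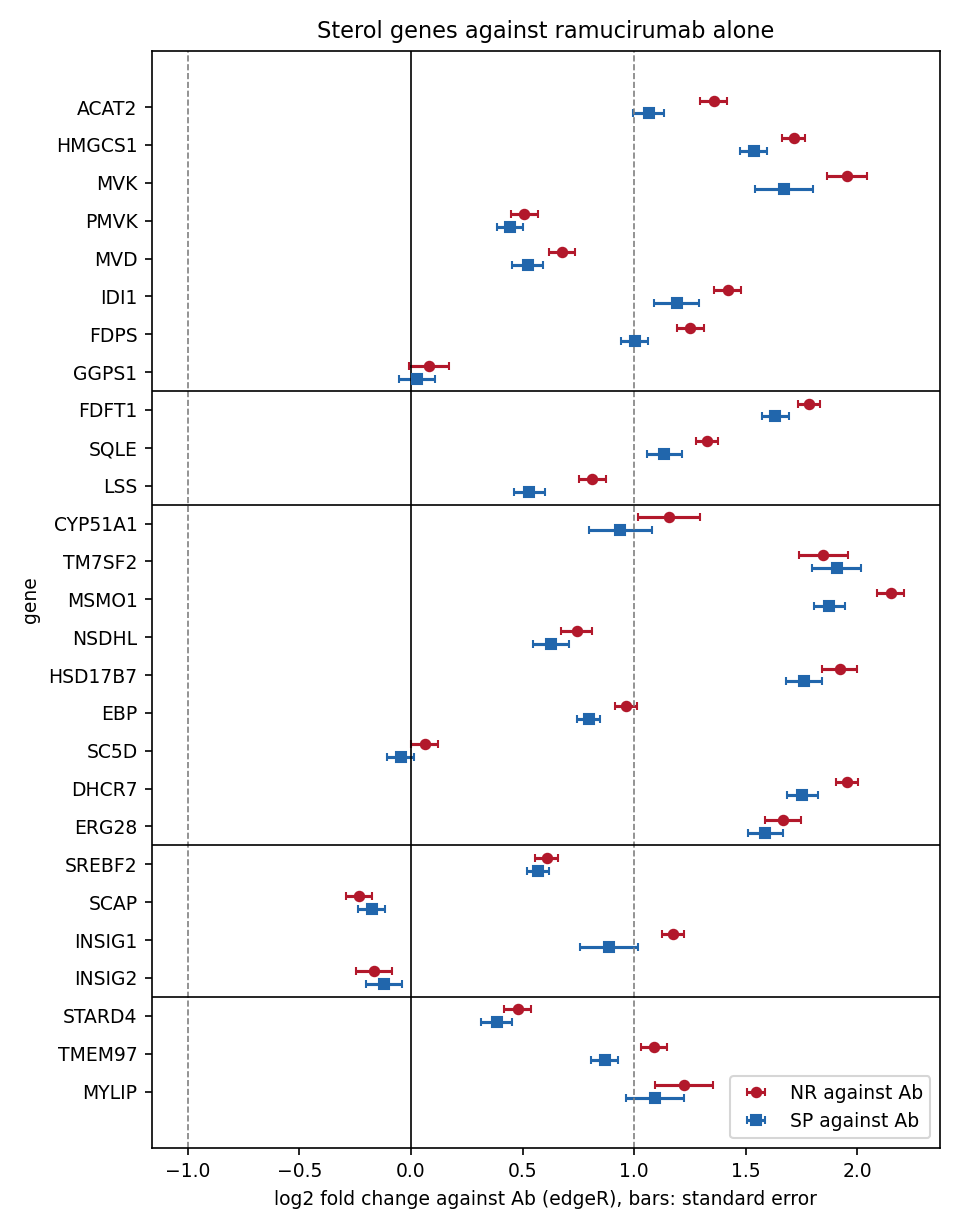
Log2 fold change of each tested gene (rows) against Ab, with the edgeR standard error as bars, for NR (red circles) and SP (blue squares); dashed lines mark 2-fold. 16 NR points lie at or beyond the right dashed line, 13 SP points do so, and SCAP and INSIG2 are to the left of 0 in both.

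The 4 genes of SREBP2 control did not move together. SREBF2, which encodes SREBP2, was at 307, 313 and 325 CPM in NR, 295, 313 and 310 CPM in SP and 215, 196 and 211 CPM in Ab. It rose 1.52-fold in NR (log2 0.61, SE 0.05, adjusted p = 1.28e-12) and 1.48-fold in SP (log2 0.57, SE 0.05, adjusted p = 1.58e-11), with the particle libraries all above the Ab libraries. SCAP, the escort, was at 65.4, 69.9 and 72.1 CPM in NR, 70.4, 75.6 and 68.4 CPM in SP and 83.1, 81.4 and 79.2 CPM in Ab. SCAP was the only listed gene that passed as lower, by 0.23 on the log2 scale in NR (SE 0.06, adjusted p = 0.000440) and by 0.18 in SP (SE 0.06, adjusted p = 0.00812). The fall in SP no longer passed without SP3 (adjusted p = 0.0609) or with upper-quartile scaling (adjusted p = 0.0984).

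INSIG1 and INSIG2 encode anchors of similar function and behaved differently. INSIG1, itself a target of SREBP2, was at 156, 159 and 152 CPM in NR, 102, 136 and 143 CPM in SP and 69.8, 69.1 and 68.2 CPM in Ab. It was called in NR (log2 1.18, SE 0.05, adjusted p = 2.04e-18), and it rose without reaching 2-fold in SP (log2 0.89, SE 0.13, adjusted p = 0.00101), where SP1 was far below SP2 and SP3. Without SP1 it was called in SP as well (log2 1.02). INSIG2 was at 25.0, 23.4 and 22.0 CPM in NR, 24.0, 23.7 and 25.0 CPM in SP and 24.0, 29.6 and 25.6 CPM in Ab, with overlapping groups and log2 values of -0.17 (SE 0.08, adjusted p = 0.0786) and -0.12 (SE 0.08, adjusted p = 0.183). Without Ab1 the INSIG2 value passed in both (log2 -0.23, adjusted p = 0.0150 in NR; log2 -0.19, adjusted p = 0.0392 in SP), and without NR1 it passed in NR (adjusted p = 0.0482).

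Of the 3 tested genes of uptake and transport, all rose. TMEM97, a membrane protein known as the sigma-2 receptor and a partner of the lysosomal cholesterol transporter NPC1, was at 91.6, 89.0 and 95.5 CPM in NR, 74.7, 80.6 and 80.8 CPM in SP and 43.3, 43.6 and 43.2 CPM in Ab. It was called in NR (log2 1.09, SE 0.06, adjusted p = 2.71e-16) and rose by 0.87 (SE 0.06, adjusted p = 4.01e-13) in SP, with the 3 groups apart. MYLIP, a ubiquitin ligase that removes lipoprotein receptors from the cell surface and a target of the oxysterol receptors LXR, was at 11.5, 13.9 and 12.3 CPM in NR, 10.2, 11.3 and 12.7 CPM in SP and 6.03, 4.71 and 5.47 CPM in Ab. MYLIP acts against sterol uptake, and it too was called higher with both carriers (log2 1.22, SE 0.13 in NR and 1.09, SE 0.13 in SP), although not in SP without Ab2 (log2 0.99). STARD4, a soluble carrier of sterol between membranes, rose by 0.48 in NR and 0.38 in SP on the log2 scale.

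Levels of different genes were compared per kilobase of exon. In every group EBP was the most abundant gene of the list, at 141 ± 4.69 CPM per kb in NR, 125 ± 7.33 in SP and 72.6 ± 3.90 in Ab, followed by PMVK, which stood 3rd in NR and SP by the longest transcript. FDFT1 was at 13.6 ± 0.494 CPM per kb in Ab and 46.9 ± 0.295 in NR, standing 9th of 28 and 3rd by exon length, but 4th and 2nd by the longest transcript. In Ab, TMEM97, ACAT2, FDPS and FDFT1 lay close together, at 14.8 ± 0.0664, 14.3 ± 0.659, 13.7 ± 0.867 and 13.6 ± 0.494 CPM per kb. The order of other genes also depends on the length used, and DHCR7 stood 13th in NR by exon length and 5th by the longest transcript.

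The carriers were then compared with each other. By edgeR or DESeq2, 0 genes of the list were called in NR against SP, where edgeR called 0.0201% of 14903 genes, 3 in all. By the adjusted p alone, 5 of 27 genes (18.5%) passed, all higher in NR, against 0.443% of all genes (66), of which 0.262% were higher and 0.181% lower in NR. A further 6 had an unadjusted p below 0.05, 11 in total. The share of all genes at that unadjusted p was not computed, so this count has no background here. The estimate was higher in NR for 24 of 27 genes, and for 14 of 27 all NR libraries lay above all SP libraries, where 17.8% of all genes had groups that did not overlap in either direction. The median was 0.16 on the log2 scale, or 1.12-fold.

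The genes that passed were ACAT2 (log2 0.29, SE 0.05, edgeR adjusted p = 0.0137), FDPS (log2 0.25, SE 0.05, adjusted p = 0.0174), MSMO1 (log2 0.28, SE 0.05, adjusted p = 0.0186), LSS (log2 0.28, SE 0.06, adjusted p = 0.0210) and TMEM97 (log2 0.22, SE 0.05, adjusted p = 0.0362). They belong to the first steps of the pathway, to the lanosterol step and the steps after it, and to sterol transport. INSIG1 had an estimate as large (log2 0.29) with an SE of 0.14 and did not pass (adjusted p = 0.503). SREBF2 differed little between the carriers (log2 0.04, SE 0.04, adjusted p = 0.700).

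These differences were sensitive to single libraries. Without SP1 no gene passed, the adjusted p of the 5 genes lay between 0.0909 and 0.151, and the median fell to 0.10, although 25 of 27 estimates were higher in NR. Without NR2 no gene passed either, without NR3 only ACAT2 did, TMEM97 was also lost without SP2 (adjusted p = 0.0883), and without SP3 the count was 8. With all libraries kept, TMEM97 did not pass in edgeR fits with a replicate block (adjusted p = 0.0630) or of all 9 libraries (adjusted p = 0.0521).

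**Figure D3:**
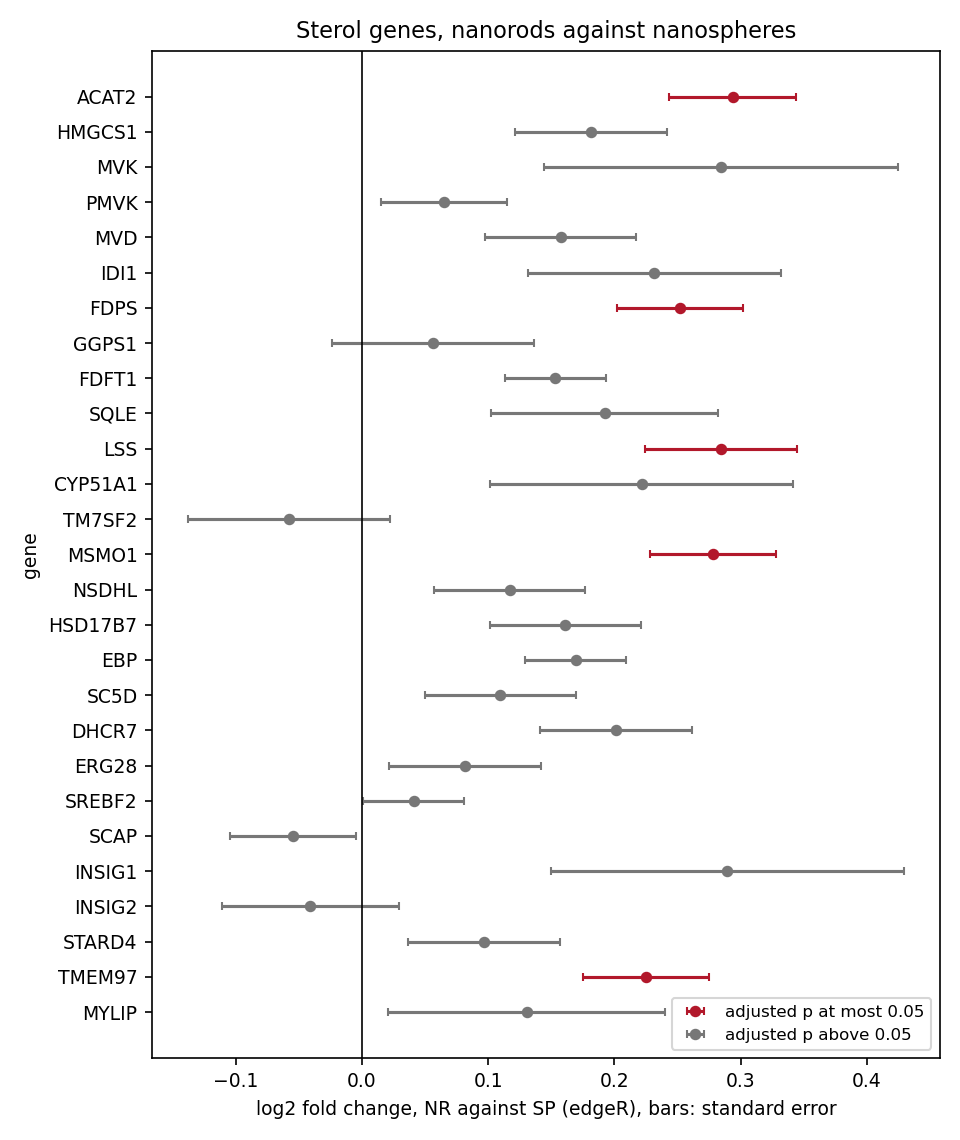
Log2 fold change of each tested gene (rows) in NR against SP, with the edgeR standard error as bars; red marks the 5 genes with an adjusted p of at most 0.05 and grey the others. 24 of 27 points lie right of 0, the farthest at 0.29, and the passing genes lose that standing without SP1.

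Related lists of sterol genes were examined to see whether the rise ran through sterol handling as a whole. Of 12 genes of SREBP processing and sterol-regulated degradation (the Golgi proteases, ubiquitin ligases and their partners), 0 were called, 5 rose and 6 fell in either comparison with Ab (edgeR, 11 of 12 at an unadjusted p below 0.05 in each), where over all genes 36.4% rose in each and 36.4% (NR) and 36.6% (SP) fell. Over all genes, 72.7% in NR and 73.0% in SP passed even the adjusted p, so a low unadjusted p is common. SREBF1, which encodes the lipogenic factor SREBP1, had the lowest adjusted p of these 12 genes in NR. It rose from 122, 111 and 111 CPM in Ab to 185 CPM in each NR library (log2 0.69, SE 0.05, adjusted p = 2.57e-13) and to 152, 173 and 173 CPM in SP (log2 0.54, SE 0.06).

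Genes of LXR signalling and efflux had 3 of 7 called higher with either carrier, where 12.4% (NR) and 12.6% (SP) of all genes were. By the adjusted p, 5 rose and 1 fell in each, where 36.4% of all genes rose and 36.4% (NR) and 36.6% (SP) fell. The gene that fell was NR1H2 (log2 -0.31 in both, edgeR adjusted p = 5.05e-06 in NR and 1.63e-05 in SP). LPCAT3, a phospholipid acyltransferase and LXR target, was at 19.9, 22.0 and 21.6 CPM in NR, 22.2, 21.1 and 23.0 CPM in SP and 6.60, 6.78 and 6.34 CPM in Ab (log2 1.68, SE 0.10 in NR and 1.75, SE 0.10 in SP), but 66.0% of its exon bases lie in exons of another gene, with which it may share reads. ABCA1, which exports cholesterol to apolipoproteins, was at 8.31, 6.52 and 5.80 CPM in NR, 8.37, 9.35 and 6.91 CPM in SP and 1.77, 2.53 and 1.55 CPM in Ab (log2 1.81, SE 0.20 and 2.06, SE 0.18). SMPDL3A, a phosphodiesterase and LXR target, rose by 1.27 (SE 0.24) and 1.19 (SE 0.25). The exporter ABCG1 did not pass in either (adjusted p = 0.0620 and 0.285). Genes of sterol synthesis and the exporter ABCA1 were thus called higher in the same comparisons.

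In the list of lysosomal release, transfer and esterification, 4 of 14 tested genes were called higher in both comparisons, 8 rose and 5 fell by the adjusted p in each. In SP without SP1, 9 rose and 5 fell. Over all genes 12.4% (NR) and 12.6% (SP) were called higher, 36.4% rose in each comparison and 36.4% and 36.6% fell, so the falls in this list were near the background. STARD5 of that list was not tested for want of counts. NPC2, the soluble protein that hands cholesterol on inside lysosomes, was at 92.8, 84.6 and 81.4 CPM in NR, 76.3, 79.9 and 87.4 CPM in SP and 16.2, 16.8 and 15.6 CPM in Ab (log2 2.42, SE 0.07 and 2.33, SE 0.07). LIPA, the acid lipase that frees cholesterol from its esters, was at 126, 126 and 128 CPM in NR, 119, 113 and 118 CPM in SP and 47.9, 48.9 and 49.6 CPM in Ab (log2 1.38, SE 0.05 and 1.27, SE 0.06). SCARB1, the HDL receptor, rose by 1.14 (SE 0.05) and 1.20 (SE 0.05), and the low-level sterol carrier GRAMD1C by 1.15 (SE 0.34) and 1.30 (SE 0.34).

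NPC1, the membrane partner of NPC2 and named here after its values were seen, moved the other way. It was at 103, 105 and 111 CPM in NR, 103, 110 and 111 CPM in SP and 213, 209 and 204 CPM in Ab, a log2 change of -0.97 (SE 0.05, adjusted p = 8.68e-17) in NR and -0.94 (SE 0.05, adjusted p = 6.89e-16) in SP. The opposite change of these partners was seen in every library.

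Of 13 genes that use isoprenoids for dolichol, ubiquinone or prenylation, 0 were called by edgeR (11 in NR and 8 in SP at an unadjusted p below 0.05). Over all genes, 72.7% in NR and 73.0% in SP passed even the adjusted p. Of the 13 genes, 6 rose and 4 fell in NR, and 4 rose and 4 fell in SP, or 5 and 4 without SP1, near the 36.4% of all genes that rose and the 36.4% and 36.6% that fell. FNTA, a subunit of the prenyl transferases that attach farnesyl and geranylgeranyl groups, had the lowest adjusted p of that list in NR and fell by 0.79 (SE 0.06, adjusted p = 1.35e-12) in NR and 0.95 (SE 0.06) in SP on the log2 scale. None of the genes in these 4 related lists passed in NR against SP, with 3, 0, 2 and 5 of them at an unadjusted p below 0.05 in the order given. The share of all genes at that unadjusted p was not computed, so these counts have no background here.

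**Figure D4:**
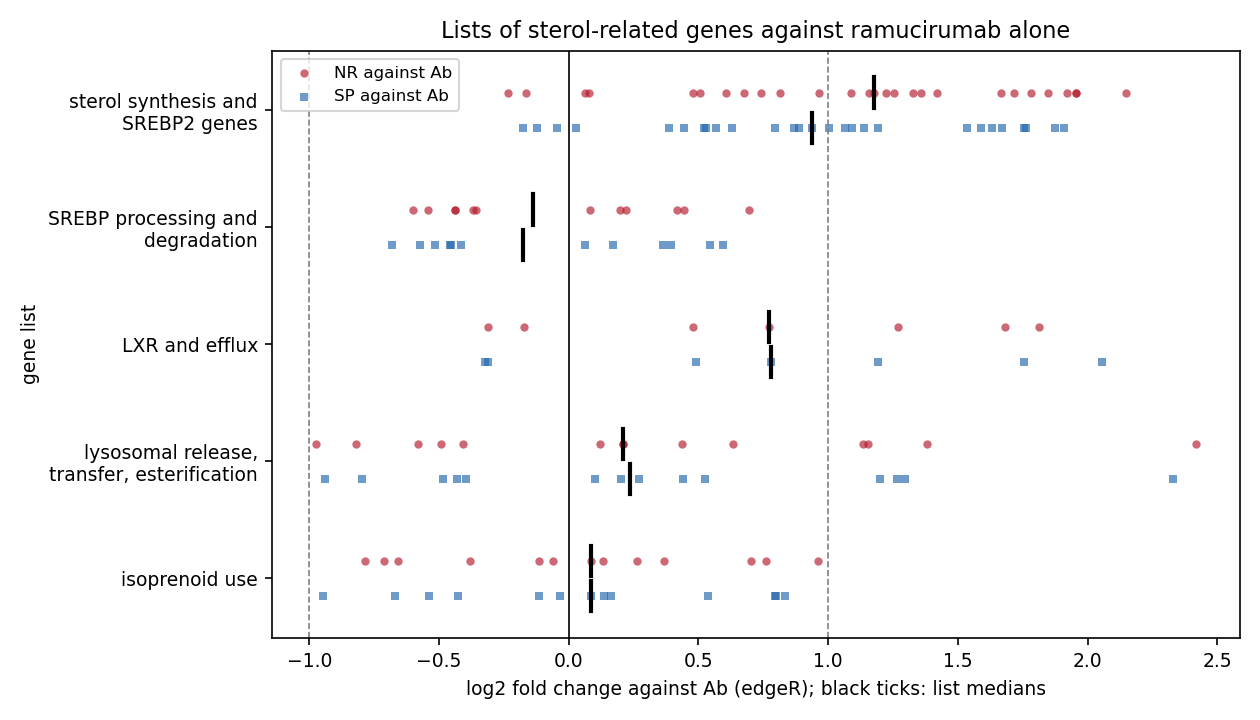
Log2 fold change against Ab of each tested gene in the listed sterol genes and 4 related lists (rows), NR as red circles and SP as blue squares, with black ticks for list medians and dashed lines at 2-fold. The medians of the first row are 1.18 and 0.94, and those of SREBP processing are -0.14 and -0.18.

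Markers of other cell types were read in the same libraries. KRT8 had the highest CPM of 7 epithelial markers and rose from 678, 642 and 653 CPM in Ab to 1850, 1880 and 1920 CPM in NR and 2020, 1920 and 1950 CPM in SP. The summed epithelial markers, most of them KRT8, were also higher with gold, at 2370, 2370 and 2400 CPM in NR, 2530, 2400 and 2440 CPM in SP and 1040, 961 and 986 CPM in Ab, and their part in the result was not tested. The sum was highest in SP1, the particle library lowest for most sterol genes, and 4 of the 6 tested markers rose against Ab in each comparison, where 36.4% of all genes did. These were KRT8 (log2 1.52 in NR and 1.59 in SP), EPCAM (1.68 and 1.60), ELF3 (0.98 and 1.03) and KRT18 (0.57 and 0.53), while CLDN4 (0.09 and 0.09) and CLDN7 (-0.13 and -0.17) did not pass. Of these markers, KRT19 had at most 3 counts in every library and EPCAM 1.51 to 6.16 CPM, while KRT8, KRT18, ELF3, CLDN4 and CLDN7 were detected in every library. Of the 7 gastric mucous markers, 3 were tested in NR against Ab and 4 in SP against Ab, and these did not move together. GKN1 was called higher in both comparisons (log2 1.57 in NR and 1.03 in SP) and CLDN18 in SP (log2 1.86), of which 1 was still called in SP without SP1, while MUC6 and MUC5AC were called lower in both. CLDN18 was not tested in NR. GKN1 had 5 to 36 counts per library, CLDN18 3 to 22 and MUC6 0 to 23, so the calls of these genes rest on few counts. MUC5AC made up most of the sum, which was 25.6, 28.5 and 27.7 CPM in NR, 50.6, 30.6 and 23.8 CPM in SP and 118, 109 and 112 CPM in Ab.

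Hepatocyte markers ALB, APOA1 and TTR, from a cell type rich in sterol synthesis, had at most 3 counts in every library, and so had the leukocyte markers PTPRC, CD3E and LYZ. Of 3 fibroblast markers, summing to 57.9 to 65.7 CPM with gold and 15.1 to 34.4 CPM in Ab, COL1A1 was the most abundant and did not pass, while DCN rose (log2 5.14 in NR and 5.23 in SP). Both endothelial markers on hand rose, CDH5 by 2.35 on the log2 scale with each carrier, and they summed to 20.7 to 23.9 CPM with gold and 3.59 to 5.13 CPM in Ab. The part of these genes in the sterol result was not tested.

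Mitochondrial genes took 4.36% to 4.66% of counts in the particle libraries and 3.41% to 3.71% in Ab. Some reads may be shared between neighbouring genes, since strand use in counting is not stated. For 8 of the 27 tested genes over 10% of exon bases lie in exons of another gene, from 12.3% in TMEM97 to 74.1% in CYP51A1. With only the 19 others, 10 were called higher in NR and 9 in SP, with medians of 1.18 and 0.89. IDI1, FDPS, CYP51A1, HSD17B7 and TMEM97 each have 2 to 8 pseudogenes in the annotation, so their counts are less certain.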

How the data were processed

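Poly-A RNA of SNU5 cells was sequenced in 9 libraries. The authors filtered the reads and aligned them with HISAT2 2.1.0, per the submitters' processing notes. What they deposited are raw read counts per Ensembl gene, not scaled. The paper names the human build hg19 while the submitters' notes name mm9. All identifiers are human, and the annotation release and strand setting are not given in the sources used here. The notes name DESeq2 1.16.1 for the authors' own tests.

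Symbols, exon lengths and overlaps came from GENCODE release 44 on GRCh37 (59858 of 60880 identifiers found, version suffixes removed). edgeR 4.0.16 (R 4.3.3) was fitted for each pair of groups to their 6 libraries: TMM scaling, filterByExpr (minimum count 10, total 15), robust quasi-likelihood fit and F-test, two-sided, Benjamini-Hochberg adjustment over all genes. SE is the log2 fold change over the root of F. CPM used TMM factors over 9 libraries. Replicates differed by more than counting noise (chi-square per gene 1.84 to 7.43). The fits were tested on simulated counts. Motifs were searched on both strands of RefSeq promoters.

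Values in full are given for genes called against Ab or passing in NR against SP and for the 4 SREBP2 control genes; from related lists, for up to 4 called genes or else the gene with the lowest adjusted p. The genes, lists and tests were chosen with earlier results of these data known. Alternatives were DESeq2 1.42.0, other scaling, other filters and fold minima, all 9 libraries in one fit, a replicate block and leaving out each library. PECAM1 was not analysed here. The result for 1 further marker is not reported here. The study calls the replicates biological, and the labels do not say which culture each came from.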

Additional observations from a re-analysis of the deposited data

Results flagged for a closer look

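In the direct edgeR test of NR against SP, 5 listed genes passed, all higher in NR (adjusted p from 0.0137 to 0.0362). They were ACAT2 (log2 0.29), FDPS (log2 0.25), LSS (log2 0.28), MSMO1 (log2 0.28) and TMEM97 (log2 0.22). For each of them the 3 NR libraries lay above the 3 SP libraries. Without SP1 the same estimates were 0.23, 0.20, 0.22, 0.21 and 0.19 with adjusted p from 0.0909 to 0.151. None of the 5 passed without NR2 either (adjusted p from 0.0669 to 0.0790), and without NR3 only ACAT2 did. TMEM97 was also lost with a replicate block (adjusted p = 0.0630) and in the fit of all 9 libraries (adjusted p = 0.0521). The background share of genes that passed was 0.443%.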

How the results depend on the processing

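The counts of listed genes called against Ab held within 1.5 times under every scaling, filter and DESeq2 run, at 16 to 17 in NR and 12 to 14 in SP. Leaving out each library gave 16 to 17 in NR (EBP gained without Ab1) and 11 to 15 in SP, lowest without Ab2, where FDPS and MYLIP fell below 2-fold. With no fold minimum 24 listed genes were called in SP, 24 in NR and 5 in NR against SP, and over all genes 10916 in NR, 11002 in SP and 66 in NR against SP; a 1.5-fold minimum gave 6348, 6385 and 5. Upper-quartile scaling moved the median of all genes by 0.07 and the NR median to 1.25, and gave SC5D a log2 value of 0.02 in SP against Ab. For NR against SP, DESeq2 called 0 of all genes and a fit with no filter on low counts 27, with 12 listed genes passing, and TMEM97 was lost in the fit of all 9 libraries (adjusted p = 0.0521). Leaving out each library gave 0 to 28 genes called over all, 0 to 8 listed genes passing and medians of 0.10 to 0.21. Small values changed sign when a library was left out: GGPS1 ran from -0.05 (without NR1) to 0.15 in NR against Ab, from -0.03 (without Ab1, and -0.01 without SP2) to 0.09 in SP against Ab and from -0.06 (without NR1) to 0.12 in NR against SP, where TM7SF2 ran from -0.12 to 0.01 (without SP1) and INSIG2 reached 0.00 (without NR3). Limiting the list to genes with at most 10% exon overlap, chosen after seeing the data, gave 10 called in NR and a median of 0.13 in NR against SP, with fewer genes counted. Apart from fewer genes or libraries, the cause of these changes was not tested. Deviations from the group mean correlated at -0.10 to 0.04 between libraries of the same number and at -0.07 to 0.12 between others. These values cannot tell whether libraries of the same number share a culture or batch. A replicate block left the called counts at 16, 13 and 0, and TMEM97 no longer passed in NR against SP (edgeR adjusted p = 0.0630).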
